A study of Mus musculus with 5 samples.

Results

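Among the RNA names listed in 5 melRNA-seq libraries of mouse germ line tissue are 100 names of transfer RNAs for alanine, valine, proline, threonine, asparagine, glutamine, methionine, phenylalanine and tryptophan, and for isoleucine with an anticodon other than TAT. They were chosen by name alone, from the amino acid and anticodon at the end of each tRNA name, out of 228 tRNA names and 1042 names of any kind. The amino acids they carry have side chains without a charge, and the 10 isotypes (the tRNAs of each amino acid) cover 20 anticodons. Alanine has 29 names, valine 15, threonine 14, glutamine 10, methionine 8, proline 7, tryptophan 6, asparagine 5, and phenylalanine and isoleucine 3 each.

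A tRNA is transcribed by RNA polymerase III from a promoter inside its gene, and the new transcript starts with a triphosphate. RNase P then cuts off the leader, which leaves a monophosphate at the 5' end of the mature tRNA, the 3' trailer is removed, and the finished tRNA reads codons at the ribosome through its anticodon. Most isotypes have many gene copies, several of which can hold the same or nearly the same mature tRNA, and copies can differ in how much they are transcribed.

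MelRNA-seq reads RNAs of medium length, here inserts of 115 to 255 nt, through an adaptor that joins only to a 5' monophosphate. All mice were C57BL/6J. Whole testis of postnatal day 7 gave 3 libraries of 600 ng of RNA each: 1 of untreated RNA, 1 treated with TAP (given in the labels as Tobacco alkaline phosphatase, 25 U for 1.5 h), which opens caps and triphosphates, and 1 treated with 5' polyphosphatase (20 U for 30 min), which opens triphosphates but leaves caps. Spermatogonia, the dividing germ cells at the start of sperm formation, were purified by FACS with an EpCAM antibody at postnatal day 7 and gave 2 replicate libraries after RppH, an enzyme that also leaves a 5' monophosphate. A gate on EpCAM takes cells with that surface protein, and no messenger RNA marker of a cell type is listed in these libraries, so the label of the cells could not be checked against markers. RefSeq (GRCm38.p6) lists 163 genes with these anticodons, from 72 to 96 nt long, so that the selected inserts were longer than any of these genes. A level given here is therefore that of reads from this size range, and the amount of mature tRNA was not measured. Whether a name stands for 1 gene or for several identical ones is not given in the sources used here, and near-identical copies can exchange reads.

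The libraries held between 1067851 and 3166394 reads assigned to a name, and 5.8S rRNA took from 19.2% to 50.2% of them. The level of a name in RPM is its number of reads for every 1000000 reads of 5.8S rRNA in that library, and, where the denominator matters, values per listed read are given too. A count of 3 reads, taken as the smallest that counts as present, corresponds to 9.49 RPM for untreated testis, 5.60 with TAP, 14.4 with 5' polyphosphatase, and 2.43 and 5.82 in the replicates of spermatogonia. Each testis treatment has 1 library, so no test between treatments or tissues was made. Intervals in parentheses are 95% intervals that cover counting error only. Each read is a whole insert, and counts were not divided by length.

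The 100 tRNA names had 620 reads in untreated testis, 1237 with TAP, 1864 with 5' polyphosphatase, and 36694 and 26897 in spermatogonia. These were 1961, 2308, 8962, 29665 and 52166 RPM. The level was thus highest in both spermatogonia libraries and lowest in untreated testis. Among all tRNA reads, the 100 names made up 4.38% (4.06 to 4.73) in untreated testis, 6.23% (5.91 to 6.58) with TAP, 10.4% (9.93 to 10.8) with 5' polyphosphatase, and 48.8% (48.4 to 49.1) and 38.0% (37.6 to 38.4) in spermatogonia. This share does not depend on 5.8S rRNA, and its order was the same as that of the levels except between the spermatogonia replicates. Of the 100 names, 44 had a read in untreated testis, 63 with TAP, 78 with 5' polyphosphatase, and 96 and 91 in spermatogonia. In the same order, 24, 25, 28, 15 and 13 of these had only 1 to 3 reads. Such counts rise with depth, which was alike in the testis libraries and higher in spermatogonia. The same count over names of any kind is not given here.

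Without enzyme, most of the reads were of glutamine tRNA names. Glutamine had 355 of the 620 reads, or 57.3% (53.3 to 61.1), followed by valine with 112 reads (18.1%) and alanine with 91 reads (14.7%). After TAP, glutamine made up 17.7% (15.7 to 19.9) and alanine 30.6% (28.1 to 33.2), and after 5' polyphosphatase 18.2% (16.5 to 20.0) and 29.1% (27.1 to 31.2). Glutamine therefore led in the untreated library, and alanine in both enzyme-treated ones. In spermatogonia, alanine had 49.7% and 51.6% and valine 42.1% and 37.9% in replicates 1 and 2. Glutamine was at 0.959% and 1.58% there. The 8 isotypes other than alanine and valine were each below 3% in both spermatogonia libraries.

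**Figure D1:**
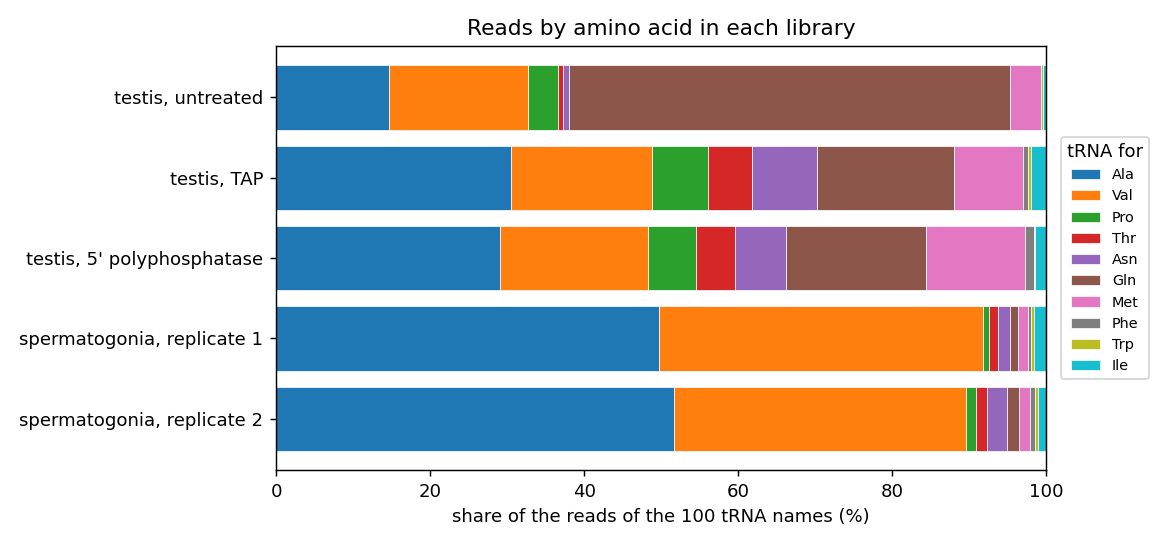
Share of each amino acid among the reads of the 100 tRNA names, in percent (x axis), in the 5 libraries (y axis). Glutamine fills 57.3% of the untreated bar and under 2% of both spermatogonia bars, where alanine and valine together fill most of the bar.

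The enzyme libraries ask which of these RNAs carried a 5' end other than a monophosphate. The sum of the 100 names was 1.18 times as high after TAP as without enzyme (1.07 to 1.30) and 4.57 times as high after 5' polyphosphatase (4.17 to 5.00). Per listed read, the values were 2.17 and 3.23, since that denominator multiplies every ratio by 1.84 with TAP and by 0.706 with 5' polyphosphatase. TAP thus gave the smaller ratio of the pair on both scales, and the ratio of 5' polyphosphatase to TAP was 3.88 (3.61 to 4.17) per 5.8S rRNA read and 1.49 per listed read. The share of 5.8S rRNA itself was 27.2% of listed reads for untreated RNA, 50.2% for RNA given TAP and 19.2% for RNA given 5' polyphosphatase, and its part in these ratios was not tested.

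The sum hides opposite values for different isotypes. Threonine went from 4 reads without enzyme to 71 after TAP and 93 after 5' polyphosphatase, and its ratio to the untreated library was 10.5 (3.82 to 28.7) with TAP and 35.3 (13.0 to 96.1) with 5' polyphosphatase. Asparagine, with 5, 104 and 124 reads, had ratios of 12.3 (5.00 to 30.1) and 37.7 (15.4 to 92.2). Both isotypes had at most 5 reads in untreated RNA. Alanine, with 91, 378 and 543 reads, had ratios of 2.45 (1.95 to 3.08) and 9.07 (7.26 to 11.3). For methionine, with 25, 111 and 239 reads, they were 2.62 (1.70 to 4.04) and 14.5 (9.62 to 21.9). Proline, with 24, 91 and 116 reads, had ratios of 2.24 (1.43 to 3.51) and 7.35 (4.73 to 11.4). These 5 isotypes had intervals above 1 with either enzyme. Valine, with 112, 225 and 358 reads, had a TAP ratio of 1.18 (0.945 to 1.49), whose interval holds 1, and a 5' polyphosphatase ratio of 4.86 (3.93 to 6.01). Per listed read its TAP ratio was 2.18 (1.74 to 2.74), above 1.

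Glutamine was the only isotype with a TAP ratio below 1. Its reads numbered 355, 219 and 339, which gave a TAP ratio of 0.364 (0.307 to 0.431) and a 5' polyphosphatase ratio of 1.45 (1.25 to 1.68). Per listed read these were 0.671 (0.567 to 0.794) and 1.03 (0.883 to 1.19), so the value below 1 with TAP held on both scales, while the value above 1 with 5' polyphosphatase did not. Isoleucine had 3, 25 and 27 reads, for ratios of 4.91 (1.48 to 16.3) and 13.7 (4.15 to 45.1). Phenylalanine had 0, 8 and 22 reads, so that it was at least 1.57-fold higher after TAP and at least 11.1-fold higher after 5' polyphosphatase, taking 3 reads for the library without any. Tryptophan had 1, 5 and 3 reads, and its ratios of 2.95 (0.345 to 25.2) and 4.56 (0.474 to 43.8) could not be told from 1 at this depth.

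The same ratios were taken for other RNAs whose 5' ends are known. 5S rRNA, a polymerase III transcript that keeps its triphosphate, had ratios of 4.14 with TAP and 7.18 with 5' polyphosphatase. U5 snRNA, which is capped, had 24.6 and 0.896. The tRNAs with introns, whose names were grouped by isotype and anticodon (Tyr, LeuCAA, IleTAT and ArgTCT), had 15.6 and 49.4, and all tRNA names outside the 100 together had 0.811 and 1.81. Per listed read the TAP value of these was 1.50, on the other side of 1. Threonine and asparagine were closest to the intron-type tRNAs, and the glutamine ratios lay below those of all other tRNAs together. SnoRNAs, most of which carry a monophosphate after trimming, had 0.126 and 1.55.

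**Figure D2:**
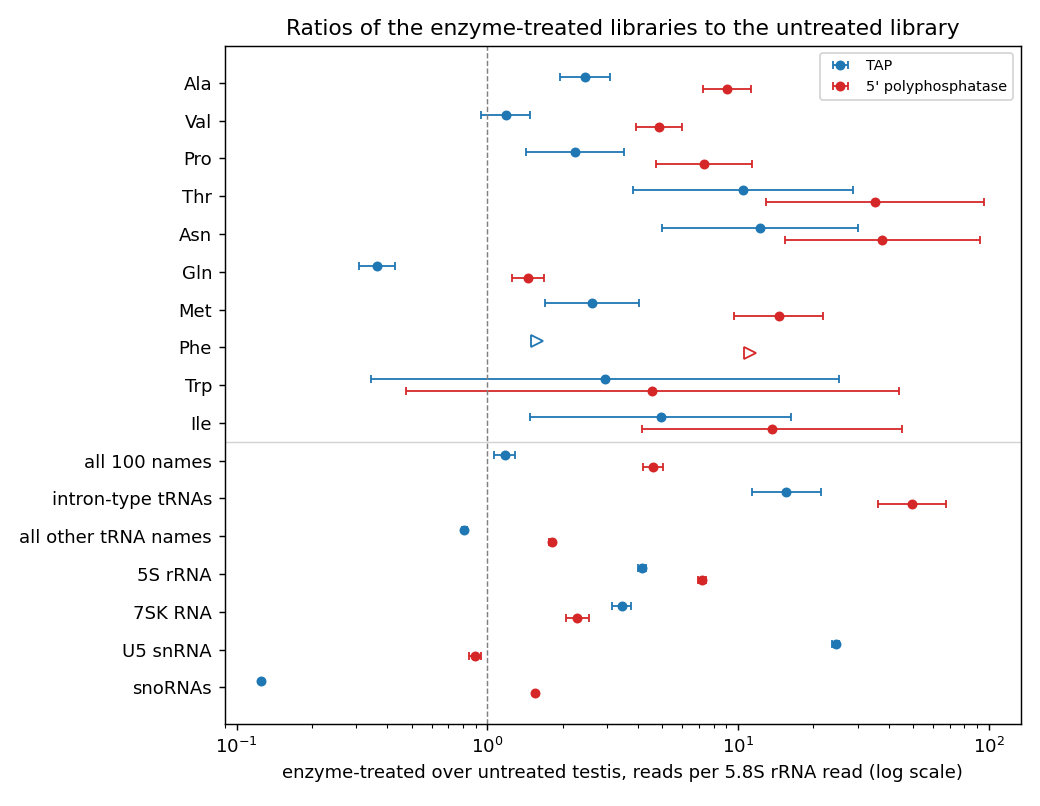
Ratio of reads per 5.8S rRNA read after TAP (blue) and after 5' polyphosphatase (red) to untreated testis (x axis, log scale), for the 10 isotypes, their sum and other RNAs (y axis). Points are 1 library over 1 library, bars are 95% counting intervals, and open triangles are lower bounds for phenylalanine, which had no read without enzyme. Glutamine is the isotype left of 1 with TAP, at 0.364.

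By single name, 20 of the 100 had at least 20 reads in the untreated and TAP libraries together. Of these, 11 were at least 2-fold higher after TAP and 3 at least 2-fold lower. Over all 255 names tested, 25.9% were higher and 50.6% lower. The median ratio was 2.47 for the 20 names and 0.476 for all. For 5' polyphosphatase, 15 of 22 names were at least 2-fold higher and 0 lower, against 37.0% and 3.15% of all 254 names, with medians of 8.82 and 1.67. Of the tRNA names outside the 100, 30 of 41 were higher with 5' polyphosphatase and 0 lower, and 17 of 39 were higher with TAP and 4 lower. With 5' polyphosphatase this was 68.2% of the 22 names and 73.2% of the other tRNA names. A name without reads in untreated RNA reaches 20 reads only where the enzyme library is high, so these counts describe the names and support nothing about the others, which had fewer reads.

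The 3 names that were lower after TAP belonged to glutamine and valine. tRNA_chr9.trna342-GlnCTG had 286 reads in untreated testis, 122 with TAP, 246 with 5' polyphosphatase, and 30 and 33 in spermatogonia. It alone made up 46.1% (42.2 to 50.1) of the reads of the 100 names in untreated testis. Its ratios were 0.252 (0.204 to 0.311) with TAP and 1.31 (1.10 to 1.55) with 5' polyphosphatase, the lowest of the names with at least 50 reads in each comparison. Per listed read they were 0.464 and 0.923, so that its 5' polyphosphatase ratio lay below 1 on that scale. Without this name, the sum of the others had a TAP ratio of 1.97 and a 5' polyphosphatase ratio of 7.36. tRNA_chr3.trna284-ValCAC had 34, 9 and 40 reads in the 3 testis libraries, and a TAP ratio of 0.156 (0.0749 to 0.325). tRNA_chr3.trna48-ValAAC had 22, 6 and 19 reads, and a TAP ratio of 0.161 (0.0652 to 0.397). All 3 were read without enzyme about as often as after 5' polyphosphatase in number of reads.

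Names with the same anticodon differed from each other. For GlnCTG, which reads the CAG codon, tRNA_chr9.trna342-GlnCTG held 93.5% of the reads in untreated testis, 75.8% with TAP and 80.7% with 5' polyphosphatase, but 9.20% and 8.94% in spermatogonia. The name tRNA_chr3.trna756-GlnCTG went the other way, with 2, 10 and 30 reads in testis and 270 and 302 in spermatogonia, or 82.8% and 81.8% of the anticodon there. Its 5' polyphosphatase ratio to untreated testis was 22.8 (5.45 to 95.4), against 1.31 for the name on chromosome 9. The leading glutamine name of testis was thus not that of spermatogonia. The names of the other glutamine anticodon, TTG, had 49, 58 and 34 reads in testis and 26 and 57 in spermatogonia. The leading pair of TTG names in testis, tRNA_chr11.trna1493-GlnTTG and tRNA_chr13.trna114-GlnTTG, had TAP ratios of 0.661 (0.385 to 1.13) and 0.737 (0.431 to 1.26), whose intervals hold 1. Per listed read they were 1.22 and 1.36.

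For ValAAC, tRNA_chr4.trna1183-ValAAC had 26, 198 and 255 reads in testis and 15194 and 10021 in spermatogonia. It held 36.6% of the reads of its anticodon in untreated testis, 94.3% with TAP, 85.9% with 5' polyphosphatase, and 99.6% in each spermatogonia replicate. Its TAP ratio was 4.49 (2.98 to 6.76) and its 5' polyphosphatase ratio 14.9 (9.96 to 22.3), while tRNA_chr3.trna48-ValAAC had 0.161 and 1.31. The intervals of these names do not overlap with either enzyme. Among 8 RefSeq genes with this anticodon, 1 lies on chromosome 4 (n-TVaac1), as the name does. ValCAC, with 37, 14 and 55 reads in testis, had 148 and 96 reads in spermatogonia. ValTAC had at most 4 reads in each testis library and 30 and 37 in spermatogonia, and ValGAC at most 5 in any library.

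**Figure D3:**
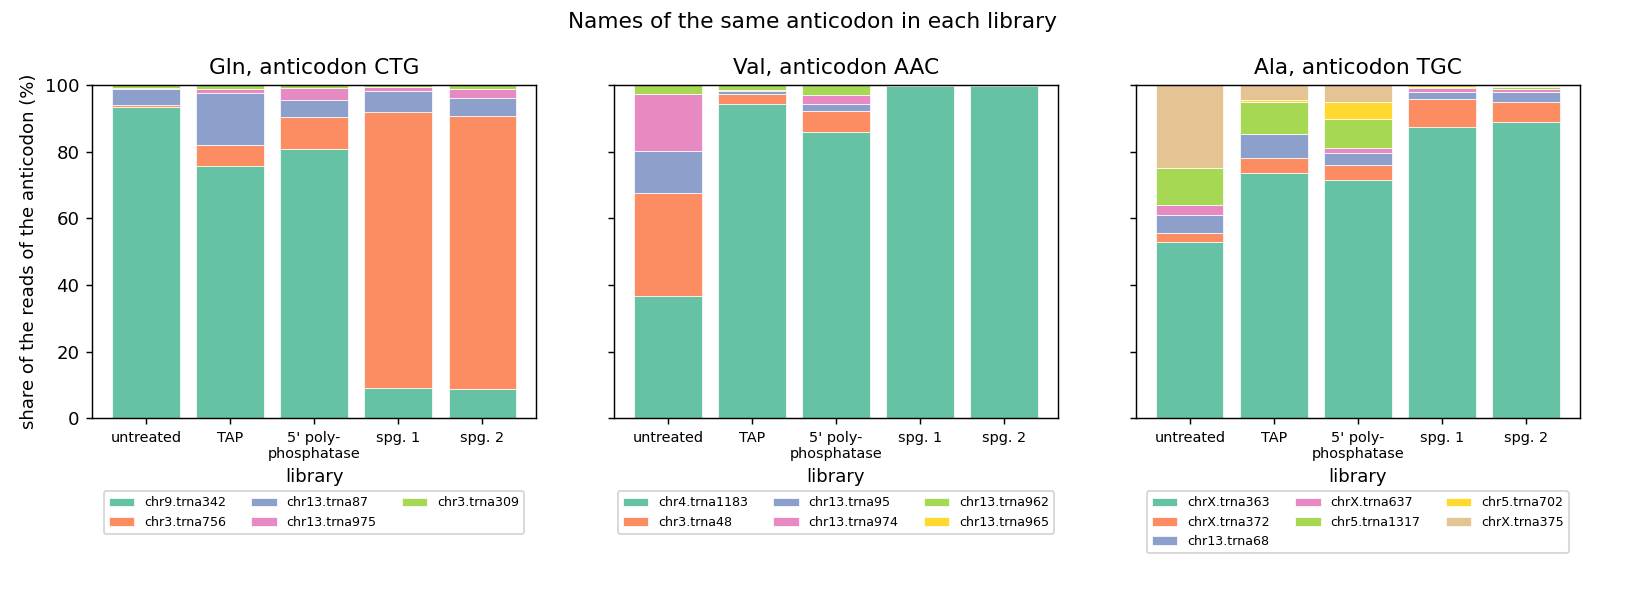
Share of each name among the reads of its anticodon, in percent (y axis), in untreated, TAP-treated and 5' polyphosphatase-treated testis and in spermatogonia (spg.) replicates 1 and 2 (x axis), for GlnCTG, ValAAC and AlaTGC. The name on chromosome 9 holds 93.5% of GlnCTG without enzyme and about 9% in spermatogonia, and the name on chromosome 4 holds 99.6% of ValAAC in spermatogonia.

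Alanine had reads of 3 anticodons. AlaTGC had 36, 137 and 196 reads in testis and 13671 and 9308 in spermatogonia, AlaAGC 30, 106 and 173 in testis and 3995 and 4064 in spermatogonia, and AlaCGC 25, 135 and 174 in testis and 557 and 516 in spermatogonia. The anticodons were therefore close to each other in testis and far apart in spermatogonia. Their TAP ratios were 2.24 for TGC, 2.08 for AGC and 3.18 for CGC, with overlapping intervals, and their 5' polyphosphatase ratios 8.27, 8.76 and 10.6.

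Names on the X chromosome carried most of the alanine TGC reads. tRNA_chrX.trna363-AlaTGC had 19, 101 and 140 reads in testis and 11950 and 8278 in spermatogonia, and tRNA_chrX.trna372-AlaTGC 1, 6 and 9 in testis and 1152 and 549 in spermatogonia. By contrast, tRNA_chrX.trna375-AlaTGC had 9, 6 and 10 reads in testis and only 19 and 17 in spermatogonia. RefSeq lists 7 AlaTGC genes and 5 AlaCGC genes on X, against 4 names of each in the libraries. AlaCGC names with few reads in untreated RNA were tRNA_chr2.trna263-AlaCGC, with 3, 34 and 47 reads, for ratios of 6.68 (2.05 to 21.8) and 23.8 (7.41 to 76.5), and tRNA_chrX.trna373-AlaCGC, with 0, 37 and 43 reads, which was at least 7.27-fold higher after TAP and at least 21.8-fold higher after 5' polyphosphatase. tRNA_chrX.trna640-AlaCGC was read without enzyme too, with 22, 41 and 49 reads and ratios of 1.10 (0.655 to 1.85) and 3.39 (2.05 to 5.60).

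In the isotypes with fewer reads, 1 name often held most of the testis reads. tRNA_chr3.trna792-MetCAT had 23, 103 and 228 reads, or 94.4% of the methionine reads of testis, and 232 and 218 in spermatogonia. Initiator and elongator methionine tRNA share the anticodon CAT, and the names do not tell them apart. Its 5' polyphosphatase ratio was 15.1 (9.81 to 23.1). tRNA_chr5.trna1043-AsnGTT had 4, 98 and 91 reads, or 82.8% of the asparagine reads of testis, and its ratios of 14.4 (5.32 to 39.3) with TAP and 34.6 (12.7 to 94.1) with 5' polyphosphatase were the highest among names with at least 50 reads. tRNA_chr7.trna977-ProAGG had 16, 49 and 77 reads, tRNA_chr14.trna704-ThrTGT 3, 40 and 46, tRNA_chr13.trna990-IleAAT 3, 24 and 25, and tRNA_chr5.trna1315-PheGAA 0, 6 and 19. Each of these leading names had fewest reads without enzyme. Tryptophan, with 0, 3 and 1 reads for tRNA_chr11.trna1849-TrpCCA and 9 reads in all, was too thinly read in testis to compare its names.

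The other anticodons of proline and threonine had few reads in testis. ProTGG had 4, 31 and 30 reads in the untreated, TAP and 5' polyphosphatase libraries, ProCGG 4, 11 and 9, ThrAGT 1, 21 and 27, and ThrCGT 0, 5 and 4. In every case the untreated library had the fewest. Their spermatogonia reads were 113 and 178 for ProTGG, 55 and 74 for ProCGG, 137 and 146 for ThrAGT, and 37 and 60 for ThrCGT.

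Spermatogonia were compared with testis after TAP. The libraries differ in tissue, enzyme, kit and amount of RNA, and these cannot be told apart. Nor can more cells with these RNAs be told from more of these RNAs in each cell. The 100 names together were at 17.7 ± 6.89 times the level of TAP-treated testis (SD, n = 2), with 12.9 and 22.6 in the replicates. Per listed read, the ratio was 10.8 ± 1.16. Against testis after 5' polyphosphatase it was 4.57 ± 1.78 per 5.8S rRNA read. All other tRNA names together were at 1.68 ± 1.10 times TAP-treated testis, with 0.898 and 2.45 in the replicates, so both replicates of the 100 names lay above both of the others.

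Alanine and valine had the highest ratios of the 10 isotypes. Alanine was at 705 RPM in TAP-treated testis and at 14732 and 26935 RPM in spermatogonia, a ratio of 29.5 ± 12.2. Valine was at 420 RPM in testis and at 12485 and 19783 RPM in spermatogonia, a ratio of 38.4 ± 12.3. The replicate ratios were 20.9 and 38.2 for alanine and 29.7 and 47.1 for valine. With testis after 5' polyphosphatase they were 5.64 and 10.3 for alanine and 7.25 and 11.5 for valine. By anticodon, the ratio was 56.9 ± 19.4 for AlaTGC, 28.1 ± 16.6 for AlaAGC, 2.88 ± 1.55 for AlaCGC, 40.7 ± 13.0 for ValAAC and 5.85 ± 1.80 for ValCAC. The lowest replicate value of AlaTGC, 43.2, was above the highest of AlaAGC, 39.9, and AlaCGC did not exceed 3.97. Against testis after 5' polyphosphatase, ValCAC was at 0.452 and 0.704 and AlaCGC at 0.538 and 1.20 in the replicates. ValCAC thus changed direction with that testis library, while the replicates of AlaCGC went opposite ways. Per listed read, ValCAC was at 0.919 and 0.947 and AlaCGC at 1.09 and 1.61 against that library.

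A pair of names carried most of the reads in spermatogonia. tRNA_chr4.trna1183-ValAAC was at 369 RPM in TAP-treated testis and at 12283 and 19435 RPM in spermatogonia (42.9 ± 13.7 times). tRNA_chrX.trna363-AlaTGC was at 188 RPM in testis and at 9661 and 16055 RPM in spermatogonia (68.2 ± 24.0 times). Together they held 74.0% (73.5 to 74.4) and 68.0% (67.5 to 68.6) of the reads of the 100 names in the replicates, against 7.26% in untreated, 24.2% in TAP-treated and 21.2% in 5' polyphosphatase-treated testis. They made up 20.2% and 15.9% of all tRNA reads in replicate 1, and 14.2% and 11.7% in replicate 2, for the valine and the alanine name. Without this pair, the other names were at 6.97 times TAP-treated testis. It took 16 names to hold 90% of the reads of untreated testis, 25 with TAP, 32 with 5' polyphosphatase, and 13 and 15 in the libraries of spermatogonia.

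Below them, alanine names again led. tRNA_chr13.trna67-AlaAGC was at 72.8 RPM in TAP-treated testis and at 700 and 2931 RPM in spermatogonia, and tRNA_chr13.trna71-AlaAGC at 26.1 and at 995 and 1858 RPM. Among names with at least 50 reads, the highest ratios were those of tRNA_chr13.trna100-IleAAT (118 ± 22.2), tRNA_chr13.trna966-AlaAGC (112, from 43.8 and 180) and tRNA_chrX.trna372-AlaTGC (89.2 ± 8.43). The isoleucine and the AlaAGC name had 1 read each after TAP, which leaves intervals of 14.4 to 732 and 6.11 to 314 for replicate 1. The size of these ratios is therefore poorly known, while the 6 testis reads of tRNA_chrX.trna372-AlaTGC put its replicate 1 ratio between 37.3 and 186.

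The other isotypes were less far from testis. Phenylalanine, at 14.9 RPM after TAP and 124 and 316 RPM in spermatogonia, had a ratio of 14.7 ± 9.12, and tryptophan, at 9.33, 103 and 171 RPM, had 14.7 ± 5.15. Isoleucine, at 46.6, 483 and 588 RPM, had 11.5 ± 1.59 with the smallest SD of these per 5.8S rRNA read. Per listed read tryptophan had the closer replicates, at 8.57 and 9.43 against 8.05 and 6.49 for isoleucine. The tryptophan and phenylalanine values rest on 5 and 8 testis reads. Asparagine had a ratio of 4.74 ± 3.12, threonine 3.90 ± 2.14, proline 2.84 ± 1.86 and methionine 2.80 ± 1.33. These 4 isotypes were above 1 in both replicates with TAP-treated testis, but with 5' polyphosphatase-treated testis asparagine, threonine and proline had 1 replicate on each side of 1 and methionine was below 1 in both, at 0.336 and 0.675. Per listed read against that library, asparagine (1.68 and 3.04) and threonine (1.44 and 2.16) were above 1 in both replicates, proline had 0.945 and 1.70, and methionine 0.682 and 0.908. The direction of methionine thus depended on the testis library on both scales. Against 5' polyphosphatase-treated testis, that of asparagine and threonine depended on the denominator. Proline had 1 replicate on each side of 1 there on either scale.

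Glutamine had replicates on both sides of 1. It was at 409 RPM after TAP and at 285 and 826 RPM in spermatogonia, a ratio of 1.36 ± 0.937 with 0.697 and 2.02 in the replicates. Against 5' polyphosphatase-treated testis it was 0.175 and 0.507. tRNA_chr9.trna342-GlnCTG was at 228 RPM after TAP and at 24.3 and 64.0 RPM in spermatogonia, or 0.107 and 0.281 times, whereas tRNA_chr3.trna756-GlnCTG was at 18.7 RPM and at 218 and 586 RPM, or 11.7 and 31.4 times. Names of 1 anticodon thus lay on opposite sides of 1 in both replicates. tRNA_chr13.trna87-GlnCTG had 0.347 and 0.832, and tRNA_chrX.trna373-AlaCGC 0.351 and 0.871. With tRNA_chr9.trna342-GlnCTG, these were the lowest 3 among names with at least 50 reads.

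The leading name also differed for threonine. There, tRNA_chr14.trna704-ThrTGT was at 74.6 RPM after TAP and 58.2 and 81.5 RPM in spermatogonia, while tRNA_chr14.trna190-ThrTGT was at 5.60 and at 113 and 221 RPM. For tryptophan, tRNA_chr13.trna109-TrpCCA led in spermatogonia with 70 and 44 reads. It had 1, 0 and 2 reads in testis, where no tryptophan name had more than 3 reads in a library, so no leader can be named there, and it was at least 10.1-fold and 15.2-fold higher in the replicates than after TAP. In the 7 other isotypes, the name with the most reads summed over the 3 testis libraries was also that of spermatogonia. In untreated testis alone, however, tRNA_chr3.trna284-ValCAC (34 reads) was ahead of tRNA_chr4.trna1183-ValAAC (26), and tRNA_chrX.trna640-AlaCGC (22) was ahead of tRNA_chrX.trna363-AlaTGC (19). Proline's tRNA_chr7.trna977-ProAGG (122 and 217 RPM in spermatogonia), asparagine's tRNA_chr5.trna1043-AsnGTT (240 and 473 RPM) and methionine's tRNA_chr3.trna792-MetCAT (188 and 423 RPM) held 38.4%, 41.5% and 51.3% of their isotype's spermatogonia reads, less than in testis.

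By single name, 64 of the 100 had at least 20 reads in the TAP and spermatogonia libraries together. In both replicates, 49 of these were at least 2-fold higher than in TAP-treated testis and 3 at least 2-fold lower, all glutamine names: tRNA_chr9.trna342-GlnCTG, tRNA_chr11.trna1493-GlnTTG and tRNA_chr13.trna114-GlnTTG. Over the 405 names of any kind tested, 54.3% were higher and 14.6% lower. The median ratio was 8.06 for the 64 names and 3.10 for the 405. These 405 were limited to names with a read in testis and in spermatogonia. The 64 were not, so their shares and median are not like for like with those of the 405. Of the tRNA names outside the 100, again without that limit, 43 of 82 were higher and 11 lower. Per listed read, 38 of the 64 were higher and 5 lower, against 43.7% and 19.0% of the 405 names. As with the enzymes, a name absent from testis passes the minimum of reads only if it is high in spermatogonia.

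**Figure D4:**
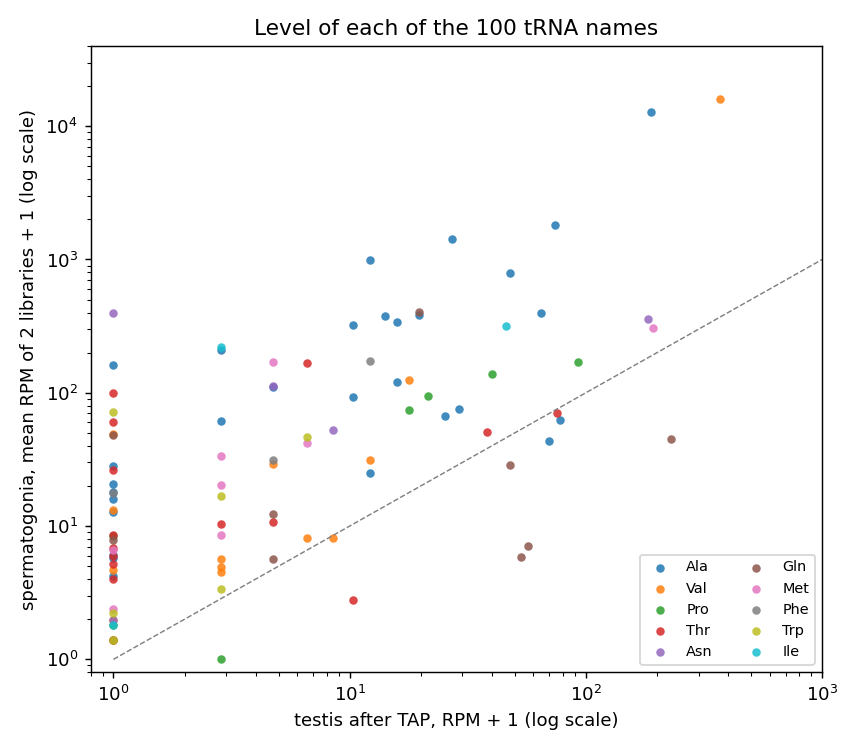
Level of each of the 100 names in testis after TAP (x axis, RPM + 1, log scale) and in spermatogonia (y axis, mean RPM of 2 libraries + 1, log scale), coloured by amino acid, with a dashed line of equal levels. The valine and the alanine name at the top right stand at 369 and 188 RPM in testis, and several glutamine names lie below the line.

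The spermatogonia replicates ranked the names alike. Over log10(RPM + 1), Pearson's r reached 0.943 and Spearman's rho 0.944 for the 99 names with a read in either replicate. These names come from the same libraries and are not independent replicates. Replicate 2 was higher than replicate 1 by 1.76 times in the sum per 5.8S rRNA read and by 1.16 times per listed read. Over 35 names with at least 100 reads, the ratio of replicate 2 to replicate 1 ran from 0.787 to 4.38 with a median of 1.95. Across 73 names the variance was 15.8 times that of counting alone (chi-square over its 72 degrees of freedom). Between TAP and 5' polyphosphatase r was 0.803 over 81 names, between untreated testis and TAP 0.609 over 67 names, and between TAP and spermatogonia replicate 1 0.614 over 98 names.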

How the data were processed

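Medium-length RNA of 5 mouse libraries was compared. Per the labels and the study's methods, the authors sequenced inserts on a MiSeq (300-bp single-end), trimmed reads with Cutadapt, keeping those in which the adaptor was found, and named them with RepeatMasker. Versions are not given in the sources used here. The deposited values are read counts for each name of a repeat or small RNA, and the authors did not normalize them. In the untreated and 5' polyphosphatase tables, 1 line each has no count and was skipped.

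The testis tables hold 1160933, 1067851 and 1081523 reads (untreated, TAP, 5' polyphosphatase) and those of spermatogonia hold 3166394 and 1993087. RPM is the count over that of 5.8S rRNA, times 1000000. Shares have Wilson 95% intervals, and ratios have 95% intervals from the log ratio, with the sum of reciprocal counts as variance. Both cover counting error only, since reads carry no molecular identifiers. A count of 0 was set to 3 reads, and the ratio is then a bound. Where both counts were 0, or 1 was 0 and the other at most 3, no ratio was computed. A name was counted as higher or lower at a ratio of at least 2 or at most 0.5, with at least 20 reads in the libraries compared and, for spermatogonia, in both replicates. Correlations used log10(RPM + 1). No model was fitted. The study calls the spermatogonia libraries biological replicates. The ratio interval was tested on simulated counts that vary by counting error only, and the Wilson interval was not tested. Values were computed with numpy 2.4.6 and scipy 1.17.1 in Python 3.11.15, and plotted with matplotlib 3.10.9.

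The tRNA names and the comparison lists were chosen with earlier results of these data known. Named single tRNAs are, per isotype, the most read in testis and in spermatogonia, and, among names with at least 50 reads in the libraries compared, the 3 highest and the 3 lowest ratios of each comparison. Further names that share an anticodon or chromosome with these, those lower after TAP, those lower in spermatogonia and 2 AlaAGC names were chosen after their values had been seen. The amount of spermatogonia RNA differs between the labels and the methods and is not given here. Alternatives were another denominator, another testis library, fewer names in the sum, and changes to the minimum of reads, the fold, the pseudocount and the replicates.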

Additional observations from a re-analysis of the deposited data

How the results depend on the processing

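No test was made, so a value counts as moved where it left its counting interval or the spread of the replicates, and a count where it changed by over 1.5 times. Of 208 alternative values of ratios, shares and counts of names, 105 stayed, 101 moved and 2 changed side of 1. A change of side was counted only where the interval or SD range of the main value lay clear of 1. Levels in another unit differ by construction and are not among them.

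With another denominator, the levels of the 100 names in untreated, TAP-treated and 5' polyphosphatase-treated testis and spermatogonia replicates 1 and 2 became 534, 1158, 1724, 11589 and 13495 per 1000000 listed reads, 197, 374, 687, 5710 and 5163 per 1000000 sequenced reads, and 43826, 62349, 103648, 487596 and 379928 per 1000000 tRNA reads. The ratio of TAP to untreated testis was then 2.17 per listed, 1.90 per sequenced and 1.42 per tRNA read, that of 5' polyphosphatase to untreated 3.23, 3.49 and 2.37, and that of 5' polyphosphatase to TAP 1.49, 1.84 and 1.66. All stayed above 1. The ratio of spermatogonia to TAP-treated testis was 10.8 per listed and 6.96 per tRNA read, and 4.57 when testis after 5' polyphosphatase replaced testis after TAP. The 2 values counted as changing side were of glutamine and methionine. Glutamine in 5' polyphosphatase over untreated testis was at 0.751 per tRNA read, and methionine in spermatogonia at 0.505 with the 5' polyphosphatase library. Others crossed 1 from a main value whose interval or SD range held 1, and count as stayed or moved. Glutamine in spermatogonia was at 0.792 per listed read and 0.341 with the 5' polyphosphatase library, and proline at 0.866 with that library. Tryptophan in 5' polyphosphatase over TAP was at 0.592 per listed read.

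Without the most read name of each isotype, the TAP ratio was 1.30, the spermatogonia ratio 10.7, the spermatogonia shares of alanine, valine and glutamine 75.7%, 2.71% and 4.58%, and the glutamine share 28.5% without enzyme and 12.0% after 5' polyphosphatase. The median over single names was 2.47 for TAP, 8.82 for 5' polyphosphatase and 8.06 for spermatogonia. In alternatives chosen after seeing the data, the TAP and 5' polyphosphatase ratios were 1.97 and 7.36 without tRNA_chr9.trna342-GlnCTG, and the spermatogonia ratio was 6.97 without tRNA_chr4.trna1183-ValAAC and tRNA_chrX.trna363-AlaTGC.

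With no minimum of reads, 19 of 67 names were higher and 9 lower after TAP (17.1% and 25.4% of all names) and 45 of 78 higher after 5' polyphosphatase (31.1% of all). With a minimum of 100 reads, 4 of 5 were higher and 1 lower after TAP (18.9% and 62.7% of all), 3 of 4 higher after 5' polyphosphatase (29.3% of all), and 30 of 38 higher and 1 lower in spermatogonia (57.0% and 16.5% of all). Per listed read, 5 of 64 names were lower in spermatogonia (19.0% of all). For spermatogonia, the share of all is over names with a read in testis and in spermatogonia, a limit not set on the 100. Without spermatogonia replicate 1, the ratio was 22.6, the shares of alanine, valine and glutamine 51.6%, 37.9% and 1.58%, and 47 of 55 names were higher and 3 lower (63.0% and 17.8% of all). Without replicate 2, the ratio was 12.9, these shares 49.7%, 42.1% and 0.959%, and 43 of 57 names were higher and 5 lower (55.9% and 21.0% of all). Pearson's r of the replicates was 0.967 with a pseudocount of 10 RPM and 0.945 over names with at least 20 reads. No paired analysis was possible because only spermatogonia have numbered replicates. With 1 to 3 reads for many names in testis, depth limits their ratios to the order of size.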
